A study of Homo sapiens with 4 samples.

Results

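The genes examined here encode the subunits of the glutamate, GABA, glycine and nicotinic acetylcholine receptors. The rule that picked them reads the symbol and no measured value, but it was set with earlier results of these data known. It took every protein-coding gene named GRIA, GRIK, GRID or GRM with a single digit, or starting with GRIN1, GRIN2 or GRIN3, GABR, GABBR, CHRN, GLRA or GLRB. The rule found 67 genes among 69222 gene identifiers, and left out 2 matching symbols that are not protein-coding, GLRA4 and GABRG3-AS1. Poly(A) RNA was counted in 4 libraries of HEK293T, an established human embryonic kidney cell line. All 4 came from cells transduced with a lentivirus carrying a short hairpin RNA: 2 libraries with a control hairpin (shCtrl) and 2 with a hairpin against RPRD1B (shRPRD1B), a protein that binds the C-terminal domain of RNA polymerase II. The sources used here do not give the hairpin sequences, the time after transduction or whether the replicates were separate cultures, so p-values measure the spread between these libraries, which may be technical.

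Ligand-gated channels and G-protein-coupled receptors for these transmitters carry most fast and much slow signalling in the nervous system. The AMPA, kainate and NMDA receptors are tetrameric cation channels opened by glutamate, whereas the GABA-A, glycine and nicotinic receptors are pentamers of related subunits. Most need particular partners: a subunit made without them is commonly retained in the cell, so transcripts of single subunits do not show that a receptor was present. HEK293 cells are widely used to express such receptors from introduced genes, and are also known to transcribe a number of neuronal genes of their own.

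Library totals ranged from 47732913 to 65572391 counts. Levels are given as CPM, the counts scaled to a common library size with edgeR's TMM factors. Of the 67 genes, 38 had a summed count of 40 or more over the 4 libraries and were compared, 21 had between 1 and 37 counts, and 8 had none. The hairpin's target RPRD1B was counted at 50.4 and 50.1 CPM in the controls, against 27.2 and 35.5 CPM in shRPRD1B. Its log2 fold change was -0.68 ± 0.16 (SE), which did not pass with edgeR's quasi-likelihood test (Benjamini-Hochberg adjusted p = 0.467) and passed with DESeq2 (adjusted p = 0.0435). It was -0.50 without shRPRD1B 1 and -0.88 without shRPRD1B 2. The knockdown libraries were less alike than the control libraries: the log2 ratio between the pair had an SD of 0.55 over all genes tested in shCtrl and of 0.68 in shRPRD1B, and over the compared receptor genes of 0.53 and 0.77. Genes with 2 counts outnumbered genes with 1 count in every library, so single counts may not be independent molecules, and the limit that a count of 0 allows covers counting error only. Some genes that every cell uses held few counts, such as POLR2A with 37 to 70 counts per library and LDHA with 20 to 50. A low count therefore does not show a low transcript level. Orders of genes and shares of sums below describe counts, not transcript abundance.

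None of the compared receptor genes passed the edgeR test in either direction (smallest adjusted p = 0.215), among 20214 genes of which 0.0297% were called higher and 0.0396% lower in shRPRD1B. At an unadjusted p under 0.05, 5 were higher (13.2% of 38, against 3.45% of all genes tested) and 2 were lower (5.26%, against 3.89%). DESeq2 called 2 higher, GABBR2 and CHRNB2 (5.26%, against 0.618% of all genes), and 0 lower (against 0.569%); it gave no adjusted p for 4 of the 38. Limma voom called none of the receptor genes and none of all genes tested; at its unadjusted p under 0.05, 4 receptor genes were higher (10.5%, against 3.11% of all genes) and 2 lower (5.26%, against 3.86%). The shRPRD1B libraries both lay above the shCtrl libraries for 12 of the 38 (31.6%, against 20.3% of all genes) and below them for 11 (28.9%, against 20.6%), and the groups overlapped for 15. The fitted log2 fold change was positive for 23 of 38 (60.5%, against 50.6% of all genes), with a median of 0.24 against 0.00 over all genes tested. With upper-quartile scaling 21 were positive and 17 negative. The median difference from the shCtrl mean was 0.18 in shRPRD1B 1 and 0.13 in shRPRD1B 2 on the log2 scale. The count minimum was set on the sum of all 4 libraries. GLRA3 reached it mainly through shRPRD1B, with 5 and 7 counts in shCtrl and 22 and 25 in shRPRD1B. So did GRM5, with 4 and 8 against 15 and 29. CHRNA9 reached it mainly through shCtrl, with 16 and 22 against 16 and 4. The counts of directions above include these genes, whose direction is tied to how they entered.

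Leaving out a knockdown library changed the calls of the receptor genes and of all genes together. Without shRPRD1B 1, edgeR called 7 of the 38 higher (18.4%, against 16.1% of all genes) and 3 lower (7.89%, against 16.5%). Without shRPRD1B 2, it called 6 higher (15.8%, against 7.14%) and 1 lower (2.63%, against 5.82%). In these fits the lone knockdown library is assumed to vary as the shCtrl libraries did, yet the knockdown libraries were less alike than the controls. Their calls are therefore not read as support for single genes. For single genes only the fold changes of these fits are given. Without either shCtrl library no receptor gene was called.

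**Figure D1:**
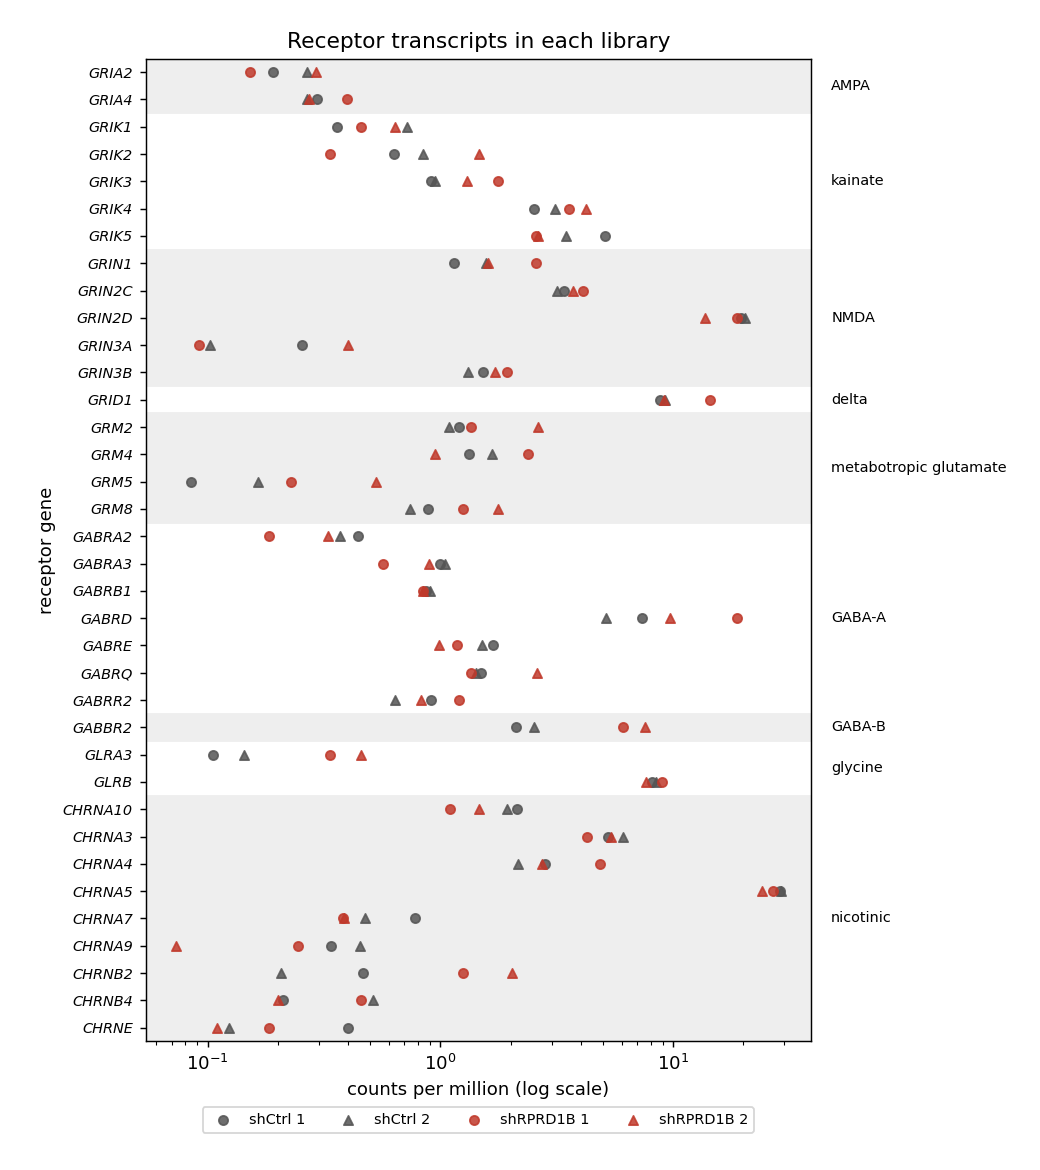
Level of 36 of the 38 compared receptor genes in each library, in CPM on a log axis; grey symbols are shCtrl, red symbols shRPRD1B, circles replicate 1 and triangles replicate 2, and bands group the families. CHRNA5 and GRIN2D stand highest in every library, and the red and grey symbols of GABBR2, CHRNB2 and GLRA3 are set apart.

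Few receptor subunits had high counts in these libraries. The compared genes spanned 0.0730 to 29.01 CPM in a single library, 21 had a mean of at least 1 CPM and 4 of at least 10 CPM. Compared between genes per kilobase of exon, CHRNA5 led the shCtrl libraries at 7.96 ± 0.0715 CPM per kb (SD, n = 2 here and below), followed by GRIN2D at 3.91 ± 0.112, GLRB at 2.39 ± 0.0577 and GRID1 at 1.52 ± 0.0562. Those steps were each larger than the spread between the control libraries. CHRNA3 at 1.19 ± 0.123 CPM per kb, GABRD at 1.12 ± 0.278 and GRIK5 at 0.852 ± 0.224 followed, and neighbours among these did not differ beyond their spread. In shRPRD1B the order of the leading genes was CHRNA5 at 7.03 ± 0.549 CPM per kb, GRIN2D at 3.19 ± 0.711, GABRD at 2.56 ± 1.15 and GLRB at 2.40 ± 0.274. In that group the libraries of GABRD overlapped those of both GRIN2D and GLRB.

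Of all receptor genes GABBR2 and CHRNB2 had the smallest p-values, and their upstream sequences are shown because these are the 2 genes that DESeq2 called. GRIN2D is shown beside them as the member with the highest CPM among those with an entry in the promoter table, and GRM2 for a pair of words it holds. RefSeq (GRCh38.p14) had a promoter window, 250 bases before to 50 after the start, for 48 of the 67 genes. Capitals mark words searched on both strands. The GC box was GGGCGG on either strand, and the CCAAT box is spelled by its name. For the RE1 element, which the repressor REST binds, the left part searched was TTCAGCACC. Its right part was searched as GGACAGC. The words were chosen after the levels had been seen. CHRNB2 and GRIN2D are given from 250 bases before the start to the base before it, at chr1:154567528-154567777 (plus strand) and chr19:48393418-48393667 (plus strand). GABBR2 is given for 30 bases at chr9:98709056-98709085 (minus strand), from 150 to 121 bases before the start, and GRM2 for 30 bases at chr3:51706862-51706891 (plus strand), from 206 to 177 bases before the start.
CHRNB2: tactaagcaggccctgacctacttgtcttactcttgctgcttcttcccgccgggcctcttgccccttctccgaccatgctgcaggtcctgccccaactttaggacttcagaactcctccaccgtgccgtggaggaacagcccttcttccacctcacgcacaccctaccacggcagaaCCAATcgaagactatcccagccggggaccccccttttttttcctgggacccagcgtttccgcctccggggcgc
GRIN2D: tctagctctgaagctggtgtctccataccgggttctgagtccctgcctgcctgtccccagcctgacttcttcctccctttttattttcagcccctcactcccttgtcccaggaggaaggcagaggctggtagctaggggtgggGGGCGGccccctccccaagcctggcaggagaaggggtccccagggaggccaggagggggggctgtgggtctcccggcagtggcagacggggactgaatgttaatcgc
GABBR2: gcgcgcacggGGGCGGGCGGaggcggcccg
GRM2: ggaTTCAGCACCacgaggcGGACAGCtcca
The GABBR2 stretch holds overlapping GC boxes, and its window held 4 in all. The CHRNB2 stretch holds a CCAAT box 73 bases before the start and no GC box in these letters. The GRIN2D stretch holds a GC box 107 bases before the start. These matches are descriptions of the letters and show no binding.

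The GABA-B receptor is a G-protein-coupled receptor made of 2 different subunits, GABBR1, which binds GABA, and GABBR2, which carries the pair to the cell surface and couples it to G proteins. GABBR2 (ENSG00000136928.7, chromosome 9, 98288109 to 98708935) had 100, 123, 400 and 416 counts in shCtrl 1, shCtrl 2, shRPRD1B 1 and shRPRD1B 2. Its level was 2.11 and 2.53 CPM in shCtrl and 6.10 and 7.59 CPM in shRPRD1B. Both knockdown libraries lay above both controls, with means of 2.32 ± 0.296 and 6.85 ± 1.05 CPM, a ratio of 2.95. The log2 fold change was 1.56 ± 0.24 (SE; 95% interval 0.97 to 2.14), which missed the edgeR threshold (adjusted p = 0.215) and passed with DESeq2 (adjusted p = 3.41e-05). It was 1.71 without shRPRD1B 1 and 1.39 without shRPRD1B 2. Its partner GABBR1 had 6, 0, 2 and 4 counts in the same order and was not compared. The GABBR2 transcript was therefore counted without a comparable number of GABBR1 counts in any library. As with POLR2A above, these low counts do not show that the GABBR1 transcript level was low.

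Nicotinic receptors are cation channels opened by acetylcholine, with one set of subunits in neurons and another in muscle. The beta subunit CHRNB2 (ENSG00000160716.6, chromosome 1, 154567778 to 154580013), which with CHRNA4 forms the main high-affinity receptor of the brain, had 22, 10, 82 and 111 counts. Its level was 0.464 and 0.206 CPM in shCtrl and 1.25 and 2.03 CPM in shRPRD1B, and the groups did not overlap. The means were 0.335 ± 0.183 and 1.64 ± 0.548 CPM. Its log2 fold change of 2.27 ± 0.51 (SE; 95% interval 1.02 to 3.52) was the largest of the compared receptor genes; it missed the edgeR threshold (adjusted p = 0.431) and passed with DESeq2 (adjusted p = 0.0315). It was 2.59 without shRPRD1B 1 and 1.90 without shRPRD1B 2. CHRNA4, its usual partner, gave 2.81 and 2.16 CPM in shCtrl against 4.83 and 2.74 CPM in shRPRD1B, with overlapping groups (log2 fold change 0.62 ± 0.35). Without shRPRD1B 2 the CHRNA4 value was 0.96, which rests on shRPRD1B 1 alone.

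The other compared nicotinic subunits all had a negative fitted fold change with each of the scalings tried, and none passed the edgeR test. CHRNA5 (ENSG00000169684.13, chromosome 15, 78565520 to 78595269) is an accessory subunit that joins other alpha and beta subunits. It had the highest CPM of the receptor genes, at 28.6 and 29.01 CPM in shCtrl and 26.9 and 24.1 CPM in shRPRD1B. It made up 70.2% of the summed nicotinic level in shCtrl and 66.6% in shRPRD1B. Its log2 fold change was -0.18 ± 0.13 (edgeR adjusted p = 0.742), and -0.26 without shRPRD1B 1. CHRNA5 shares 28.4% of its exon length with other genes, CHRNA3 among them. Reads from the shared part cannot be assigned with certainty, so its counts may be too high or too low. CHRNA3, the alpha subunit of ganglionic receptors, had levels of 5.23 and 6.06 CPM in the controls and of 4.27 and 5.42 CPM in shRPRD1B. CHRNB4, the beta subunit that pairs with CHRNA3, stood at 0.211 and 0.514 CPM in shCtrl, and at 0.457 and 0.201 CPM in shRPRD1B. These 3 genes lie within 96.1 kb of each other on chromosome 15, and the groups overlapped for CHRNA3 and CHRNB4.

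CHRNA10 and CHRNA9 encode the alpha subunits known from cochlear hair cells. CHRNA10 was counted at 2.13 and 1.93 CPM in shCtrl against 1.10 and 1.46 CPM in shRPRD1B, and CHRNA9 at 0.338 and 0.452 CPM against 0.244 and 0.0730 CPM. Both knockdown libraries were below both controls for each (log2 fold changes -0.68 ± 0.28 and -1.24 ± 0.63). CHRNA7, which can form a receptor by itself, had levels of 0.781 and 0.473 CPM in the controls and of 0.381 and 0.383 CPM in shRPRD1B; its counts are uncertain because CHRFAM7A holds a near-identical copy. CHRNE, the adult muscle subunit, stood at 0.401 and 0.123 CPM in shCtrl, and at 0.183 and 0.109 CPM in shRPRD1B, and it shares 54.4% of its exon length with other genes. The remaining nicotinic genes were not compared. CHRNG, the fetal muscle subunit, had 2, 2, 6 and 9 counts, CHRNA6 had 2, 2, 0 and 2, CHRNB1 2, 0, 2 and 0, CHRND 0, 0, 2 and 1, and CHRNA1 0, 0, 0 and 2. CHRNA2 and CHRNB3 had no count in any library. The summed nicotinic level was 41.1 and 41.0 CPM in shCtrl and 39.8 and 36.7 CPM in shRPRD1B, a ratio of 0.931.

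The GABA-A receptors are chloride channels assembled from alpha, beta and a further subunit such as gamma or delta. GABRD (ENSG00000187730.9, chromosome 1, 2019345 to 2030758), the delta subunit of receptors outside synapses that give tonic inhibition, gave 7.32 and 5.14 CPM in shCtrl against 18.7 and 9.71 CPM in shRPRD1B. Both knockdown libraries were above both controls, and shRPRD1B 1 was far above shRPRD1B 2 (means 6.23 ± 1.54 and 14.2 ± 6.37 CPM). The log2 fold change was 1.20 ± 0.36 (edgeR adjusted p = 0.606; DESeq2 adjusted p = 0.0582). It was 0.64 without shRPRD1B 1 and 1.59 without shRPRD1B 2. GABRD made up 45.4% of the summed GABA-A level in shCtrl and 65.9% in shRPRD1B, and that sum was 14.9 and 12.6 CPM in shCtrl and 25.4 and 17.7 CPM in shRPRD1B.

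Of the other 7 compared GABA-A genes, 3 had a positive and 4 a negative fold change, and none had an unadjusted p under 0.05. The alpha subunits GABRA2 (0.443 and 0.370 CPM in shCtrl, against 0.183 and 0.328 CPM in shRPRD1B) and GABRA3 (0.992 and 1.05 CPM, then 0.564 and 0.894 CPM) were below both controls in both knockdown libraries. So was the epsilon subunit GABRE, at 1.69 and 1.501 CPM in shCtrl and 1.17 and 0.985 CPM in shRPRD1B. The beta subunit GABRB1 also lay below, by little, at 0.865 and 0.905 CPM against 0.839 and 0.839 CPM. Overlapping groups were found for the remaining 3, GABRQ and GABRR2 among them. The theta subunit GABRQ stood at 1.499 and 1.42 CPM in shCtrl, and at 1.36 and 2.59 CPM in shRPRD1B. Without shRPRD1B 1 the log2 fold change of GABRQ was 0.83. The rho subunit GABRR2, found mainly in the retina, gave 0.908 and 0.637 CPM in shCtrl against 1.20 and 0.821 CPM in shRPRD1B.

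Gamma subunits join alpha and beta in most synaptic GABA-A receptors. Among them GABRG1 had 2, 6, 2 and 2 counts, and GABRG3 had none. Among the alpha subunits, GABRA4, GABRA5 and GABRA6 had none. GABRB2 had 10, 8, 6 and 4 counts, GABRR1 had 8, 0, 2 and 0, GABRP had 0, 0, 2 and 0, and GABRR3 had none. A count of 0 allows up to 3 counts, which corresponds to 0.0457 to 0.0633 CPM depending on the library. Many of these genes lie in clusters, and all 3 genes of the X-chromosome cluster of GABRE, GABRA3 and GABRQ were compared. Over all 67 genes, 25 lay in 10 clusters of neighbours at most 500 kb apart.

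Glycine receptors are inhibitory chloride channels in which alpha subunits bind glycine and the beta subunit GLRB ties the channel to the scaffold gephyrin. GLRB had levels of 8.13 and 8.41 CPM in the controls and of 8.97 and 7.63 CPM in shRPRD1B, with overlapping groups and a log2 fold change of 0.0074 ± 0.18 (edgeR adjusted p = 0.994; 95% interval -0.43 to 0.45). Its sign turned with upper-quartile scaling (-0.02), without shCtrl 1 (-0.02) and without shRPRD1B 1 (-0.12). The alpha subunit GLRA3 was counted at 0.106 and 0.144 CPM in shCtrl and 0.335 and 0.456 CPM in shRPRD1B. Both knockdown libraries were above both controls for GLRA3, and its log2 fold change was 1.63 ± 0.56 (edgeR adjusted p = 0.654). GLRA3 reached the count minimum mainly through its shRPRD1B counts, so this direction is tied to its selection. GLRA1 had 2, 5, 6 and 6 counts and GLRA2 had 3, 3, 0 and 1, and neither was compared.

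**Figure D2:**
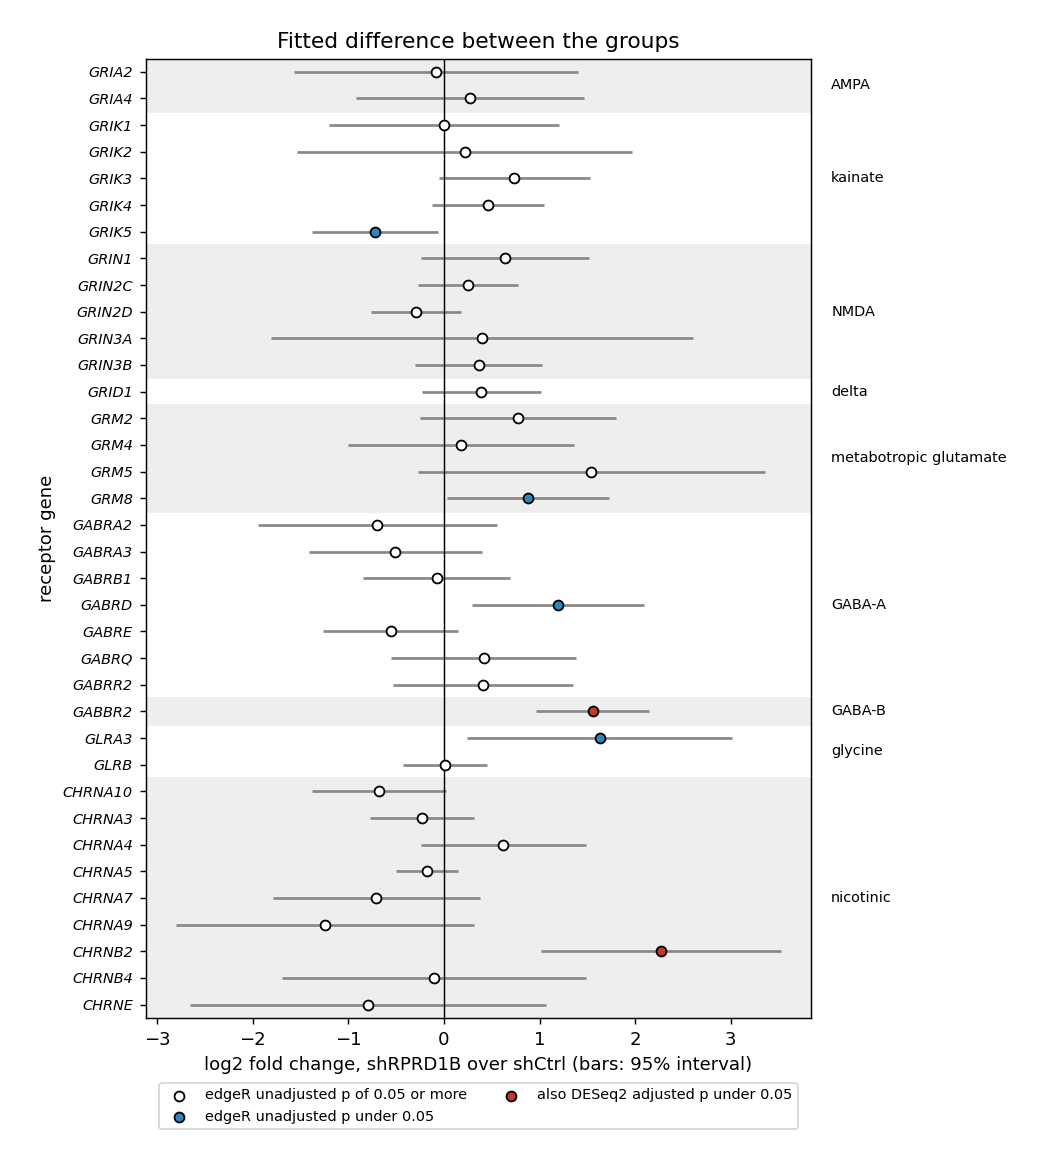
Fitted log2 fold change of 36 of the 38 compared receptor genes, shRPRD1B over shCtrl, with its 95% interval as a bar; blue points have an edgeR unadjusted p under 0.05 and red points also a DESeq2 adjusted p under 0.05. The red points are GABBR2 at 1.56 and CHRNB2 at 2.27, and the blue point below 0 is GRIK5.

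Among the ionotropic glutamate receptors 14 genes were compared, of which 10 had a positive fitted fold change, and none passed the edgeR test. GRIK1, nearly level between the groups, turned negative with upper-quartile scaling. NMDA receptors need the obligatory subunit GRIN1, which stood at 1.14 and 1.56 CPM in shCtrl, and at 2.56 and 1.61 CPM in shRPRD1B. The log2 fold change of GRIN1 was 0.64 ± 0.35, and 0.92 without shRPRD1B 2. The glutamate-binding subunit GRIN2D (ENSG00000105464.4, chromosome 19, 48393668 to 48444931) is known for slowly closing channels early in development. It had the second highest CPM of the receptor genes, at 19.5 and 20.3 CPM in shCtrl and 18.8 and 13.7 CPM in shRPRD1B. Its log2 fold change was -0.29 ± 0.19 (edgeR adjusted p = 0.732), and -0.54 without shRPRD1B 1. GRIN2C, a glutamate-binding subunit of the cerebellum, gave 3.38 and 3.17 CPM in shCtrl against 4.09 and 3.70 CPM in shRPRD1B. The glycine-binding subunit GRIN3B stood at 1.52 and 1.32 CPM against 1.92 and 1.72 CPM, and GRIN3A at 0.253 and 0.103 CPM against 0.0915 and 0.401 CPM. GRIN2A and GRIN2B, the main glutamate-binding subunits of the forebrain, had 0, 0, 2 and 0 counts and 8, 4, 14 and 0 counts and were not compared. GRIN2D made up 75.8% of the summed NMDA level in shCtrl and 66.5% in shRPRD1B.

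Kainate receptors combine the subunits GRIK1, GRIK2 or GRIK3, which can form channels alone, with GRIK4 or GRIK5, which cannot. GRIK5 had levels of 5.07 and 3.47 CPM in the controls and of 2.56 and 2.63 CPM in shRPRD1B, with both knockdown libraries below both controls. Its log2 fold change was -0.72 ± 0.27 (edgeR adjusted p = 0.670), with -0.70 without shRPRD1B 1 and -0.73 without shRPRD1B 2. GRIK4, the other subunit of that kind, lay above both controls at 3.57 and 4.20 CPM in shRPRD1B against 2.51 and 3.10 CPM (log2 fold change 0.46 ± 0.24). GRIK3 likewise lay above, at 1.77 and 1.30 CPM in shRPRD1B against 0.908 and 0.946 CPM (0.74 ± 0.32). The groups overlapped for GRIK1, at 0.359 and 0.720 CPM in shCtrl and 0.457 and 0.639 CPM in shRPRD1B, and for GRIK2, at 0.633 and 0.843 CPM against 0.335 and 1.46 CPM. GRIK5 made up 46.0% of the summed kainate level in shCtrl and 27.4% in shRPRD1B, while the sum itself was 9.48 and 9.09 CPM in shCtrl and 8.69 and 10.2 CPM in shRPRD1B.

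The AMPA receptor subunits, which carry most fast excitation in the brain, had low counts in these libraries. GRIA4 stood at 0.295 and 0.267 CPM in shCtrl, and at 0.396 and 0.274 CPM in shRPRD1B (log2 fold change 0.27 ± 0.48; edgeR adjusted p = 0.884), and its sign turned without shRPRD1B 1 (-0.04). GRIA2, the subunit whose editing keeps calcium out of the channel, gave 0.190 and 0.267 CPM in shCtrl against 0.152 and 0.292 CPM in shRPRD1B. GRIA3 had 6, 5, 13 and 6 counts and GRIA1 had 0, 2, 2 and 0. The delta receptor GRID1 binds cerebellins at synapses rather than glutamate. GRID1 had levels of 8.76 and 9.23 CPM in the controls and of 14.4 and 9.14 CPM in shRPRD1B, so the groups overlapped (log2 fold change 0.39 ± 0.25; edgeR adjusted p = 0.730). Without shRPRD1B 2 the GRID1 value was 0.68.

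Metabotropic glutamate receptors signal through G proteins, GRM5 through Gq and GRM2, GRM3, GRM4 and GRM8 through Gi. All 4 compared genes of this family had a positive fitted fold change with each of the scalings tried, and none passed the edgeR test. Of these, GRM5 reached the count minimum mainly through its shRPRD1B counts. GRM8 gave 0.886 and 0.740 CPM in shCtrl against 1.25 and 1.77 CPM in shRPRD1B, without overlap (log2 fold change 0.88 ± 0.34; edgeR adjusted p = 0.674). Without shRPRD1B 1 the GRM8 value was 1.12. GRM2 had levels of 1.20 and 1.09 CPM in the controls and of 1.36 and 2.63 CPM in shRPRD1B. Its log2 fold change was 0.77 ± 0.41, or 1.19 with shRPRD1B 1 left out. GRM5 stood at 0.0844 and 0.164 CPM in shCtrl, and at 0.229 and 0.529 CPM in shRPRD1B. Without shRPRD1B 1 the log2 fold change of GRM5 moved from 1.54 to 2.06. GRM5 shares 50.4% of its exon length with its antisense gene GRM5-AS1, and without a stated strand setting the counts of the pair cannot be told apart. GRM4 gave 1.33 and 1.67 CPM in shCtrl against 2.38 and 0.949 CPM in shRPRD1B (0.18 ± 0.47; edgeR adjusted p = 0.927), and without shRPRD1B 1 its value was -0.66. Of the genes under the minimum, GRM3 had 8, 6, 15 and 8 counts, GRM6 had 0, 0, 0 and 1, and GRM7 had none. The summed level of the family was 3.67 and 3.82 CPM in shCtrl and 5.69 and 6.24 CPM in shRPRD1B, a ratio of 1.59.

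**Figure D3:**
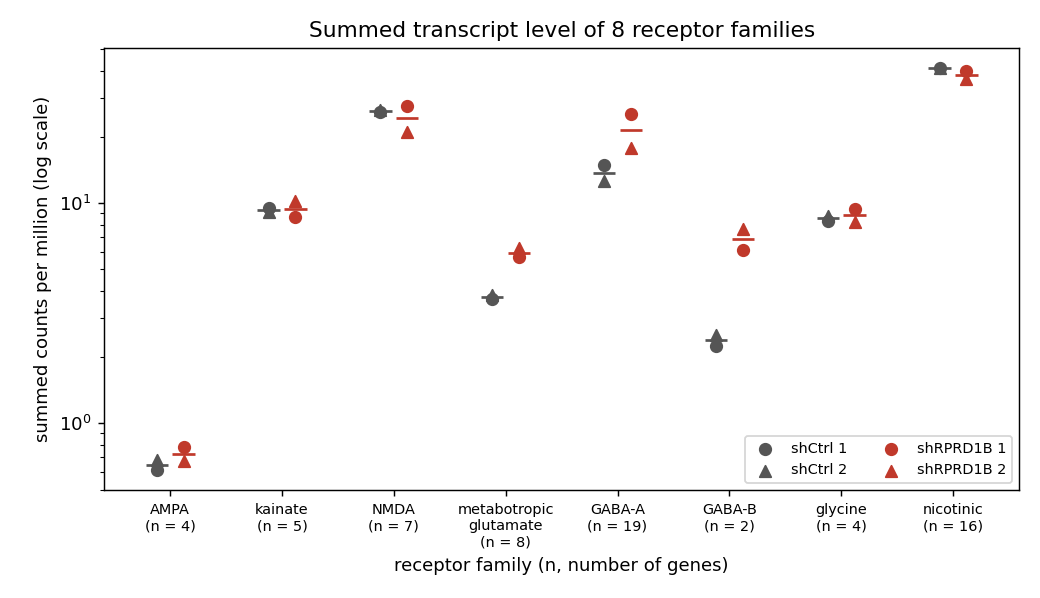
Summed level of all members of 8 receptor families in each library, in CPM on a log axis; circles are replicate 1, triangles replicate 2, and short lines the group means. The shRPRD1B symbols lie above the shCtrl symbols for the GABA-B, metabotropic glutamate and GABA-A families, with ratios of the means of 2.89, 1.59 and 1.57. They lie near them for the NMDA and nicotinic families, with ratios of 0.929 and 0.931. A single gene weighs heavily in 2 of the raised sums. GABBR2 made up 97.3% of the GABA-B sum in shCtrl and 99.2% in shRPRD1B, and GABRD 45.4% and 65.9% of the GABA-A sum.

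The proteins that assemble, anchor or feed these receptors were read from lists of related genes in the same fit, and edgeR called none of them in either direction. The counts of every list stand beside these shares of all genes tested. At an edgeR unadjusted p under 0.05, 3.45% were higher and 3.89% lower, and DESeq2 called 0.618% higher and 0.569% lower. Of the kainate, NMDA and delta receptor partners 18 of 22 were tested, 3 had an unadjusted p under 0.05 and were higher, and DESeq2 called 2 of these higher. They were CAMK2B, the beta subunit of the calcium-dependent kinase of synapses (3.38 and 2.61 CPM in shCtrl, 7.34 and 6.37 CPM in shRPRD1B; DESeq2 adjusted p = 0.00426), and CBLN1, the cerebellin ligand of the delta receptors (1.01 and 1.48 CPM, then 3.26 and 3.41 CPM; DESeq2 adjusted p = 0.0210). Of the AMPA receptor auxiliary subunits 12 of 17 were tested, and at an unadjusted p under 0.05 there were 2, each higher. CACNG4 was counted at 0.844 and 0.411 CPM in the controls and at 1.34 and 1.28 CPM in shRPRD1B, and CNIH2 at 5.11 and 4.23 CPM against 8.46 and 6.46 CPM. DESeq2 called 0 of that list.

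Of the GABA and glycine receptor partners 14 of 16 were tested, and 2 were lower at an unadjusted p under 0.05. KCTD12, an auxiliary subunit of the GABA-B receptor that binds GABBR2, stood at 616 and 592 CPM in shCtrl, and at 418 and 326 CPM in shRPRD1B, and DESeq2 called it lower (log2 fold change -0.70 ± 0.15 with edgeR; DESeq2 adjusted p = 0.0108). KCTD12 thus lay below both controls where GABBR2 lay above them. IQSEC3, a gephyrin-binding protein of inhibitory synapses, stood at 0.464 and 0.391 CPM against 0.198 and 0.146 CPM. Of the nicotinic receptor chaperones and modulators 12 of 14 were tested, and LYPD1, which binds nicotinic receptors and dampens them, was higher at 7.03 and 7.37 CPM in shRPRD1B against 3.86 and 4.11 CPM (DESeq2 adjusted p = 0.0447). The transmitter enzymes and transporters had 18 of 26 tested, with 3 higher and 2 lower at an unadjusted p under 0.05, and DESeq2 called 0. The GABA transporter SLC6A11 was counted at 22.2 and 22.8 CPM in shCtrl against 29.2 and 35.5 CPM in shRPRD1B, and the glutamate transporter SLC1A2 at 0.148 and 0.267 CPM against 1.04 and 0.438 CPM. The glutamate transporter SLC1A3 was counted at 61.3 and 63.0 CPM in the controls and at 37.9 and 51.5 CPM in shRPRD1B, and the cholinesterase BCHE at 14.7 and 13.4 CPM against 8.83 and 5.16 CPM. Of the serotonin-, zinc- and ATP-gated channels 6 of 13 were tested, and P2RX1 was lower at an unadjusted p under 0.05, at 0.507 and 0.411 CPM in shCtrl and 0.213 and 0.109 CPM in shRPRD1B.

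Neuron markers were read beside the receptor genes. Of 15 neuron markers 12 were tested, and 8 had a positive and 4 a negative fitted fold change. Both knockdown libraries lay above both controls for 8 and below for 1, against 20.3% and 20.6% of all genes tested. At an edgeR unadjusted p under 0.05, 5 were higher, against 3.45% of all genes. EdgeR called 0, and DESeq2 called INA and SYN1 higher, against 0.618% of all genes. SYN1, a protein of synaptic vesicles, stood at 0.591 and 0.740 CPM in shCtrl, and at 1.95 and 2.43 CPM in shRPRD1B. The summed level of the list was 253 to 260 CPM in shCtrl and 236 to 294 CPM in shRPRD1B, so the sums overlapped. No marker of the list was at 0 in all libraries, and DCX was at 0 in 3 of them. The part of this in the receptor values was not tested. All 4 libraries are of the HEK293T line, and in bulk RNA more cells holding a transcript and more of it per cell cannot be told apart. Other lists moved too. Of 5 epithelial markers tested 5 had a negative fitted fold change, and 3 lay below both controls, against 20.6% of all genes. Of 5 fibroblast markers tested 2 were lower at an edgeR unadjusted p under 0.05 (3.89% of all genes), and DESeq2 called 1 lower (0.569%). Of 7 astrocyte and oligodendrocyte markers tested 1 was higher at that edgeR p. The summed epithelial markers stood at 89.9 to 93.3 CPM in shCtrl and 58.8 to 85.1 CPM in shRPRD1B, with KRT19 at 0 in all libraries. The fibroblast markers stood at 35.2 to 39.5 CPM against 24.1 to 26.6 CPM (COL1A2 at 0), the astrocyte and oligodendrocyte markers at 26.6 to 27.5 against 20.8 to 28.7 CPM (MOG at 0), the skeletal muscle markers at 23.2 to 27.8 against 24.4 to 32.0 CPM, and the leukocyte markers at 4.41 to 4.50 against 3.07 to 4.47 CPM.

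The promoters of the compared receptor genes were richer in G and C than those of the genes under the count minimum. Of the 48 windows, the 28 of compared genes had a median G+C content of 69.2% and the 20 others one of 56.7%, beside 63.0% over 15318 protein-coding promoters of the same length. The observed over expected CpG ratio had medians of 0.792 and 0.477, beside 0.767 over all. A ratio above 0.6 together with a G+C content above 50% was met by 19 of 28 compared genes (67.9%), 6 of 20 under the minimum (30%) and 64.0% of all promoters. GABBR2 had a G+C content of 79.0% and a CpG ratio of 1.08, CHRNB2 60.3% and 0.615, and GRIN2D 62.3% and 0.276. The window of GRIN2D, which had the highest CPM of these 3 genes, was thus not CpG-rich by this rule. A GC box was found in 17 of the 28 compared windows (60.7%) and 9 of the 20 others (45.0%), and in 59.2% of all promoters. A CCAAT box was found in 10 of 28 (35.7%) and 9 of 20 (45.0%), and in 36.6% of all.

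**Figure D4:**
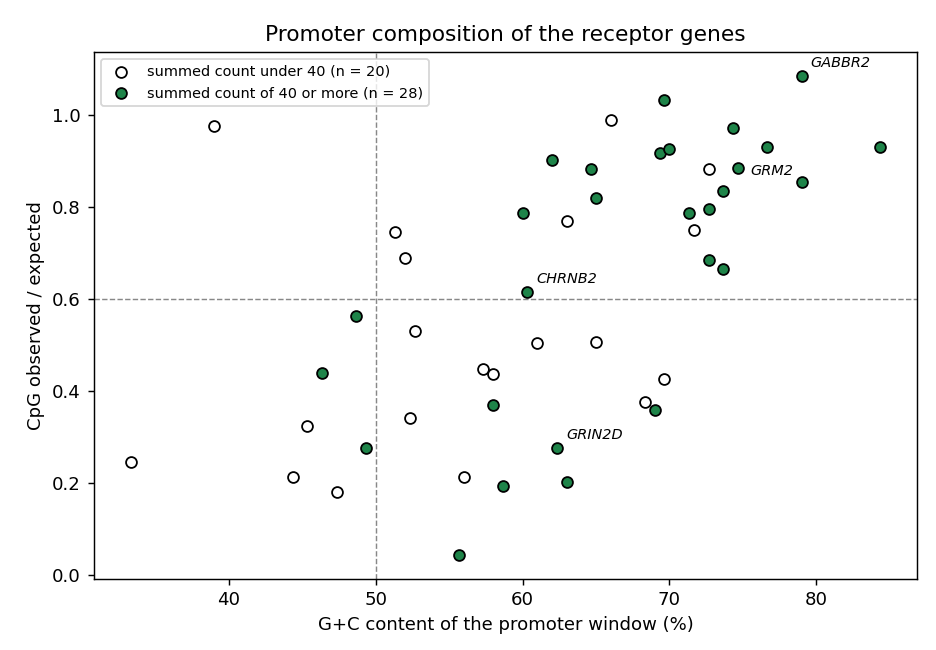
G+C content of each of the 48 promoter windows in percent against its observed over expected CpG ratio; filled points are compared genes and open points genes with a summed count under 40, and dashed lines mark 50% and 0.6. Of the filled points 19 of 28 lie in the upper right field, and 6 of 20 open points do.

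REST represses neuronal genes outside the nervous system through the RE1 element, several receptor subunit genes among them. The left part of that element was found in 1 receptor window, that of GRM2 (0.392% of all promoters hold it), and the right part in 7 (14.6%, against 6.86% of all promoters). Of these 7, 3 were among the 28 windows of compared genes (10.7%) and 4 among the 20 under the count minimum (20%). In GRM2 both parts stood in the order of the element, 203 and 187 bases before the start with 7 bases between them, and 15 of the 15318 promoters (0.0979%) held both words anywhere. That gap was not compared with the spacing of the element, so the pair is not shown to be an RE1 site. The window of GLRB held the right part 59 bases before the start and that of GABRQ 71 bases before it. A word missing from a window says nothing of other sites of the gene.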

How the data were processed

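Each library had 1 deposited file of raw counts of reads by gene, used as the authors made it: per the submitters' processing notes, reads were handled with Trim Galore, HISAT2, featureCounts and hg38. The sources used here do not give tool versions, the gene annotation used for counting, its strand option or how multi-mapping reads were handled. Of 69222 identifiers, 62686 matched a symbol. Gene coordinates, biotypes and promoters came from RefSeq (GRCh38.p14), and exon lengths and overlaps from GENCODE 29.

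All 20214 identifiers with a summed count of 40 or more entered edgeR 4.0.16 (R 4.3.3): quasi-likelihood fit with robust estimation, TMM factors, the group as the only term, Benjamini-Hochberg adjustment over all of them and a threshold of 0.05. SEs and 95% intervals come from that fit, and a prior count of 2 was used for log2 CPM. DESeq2 1.42.0 and limma voom (limma 3.58.1) were alternatives, beside other scalings, filters, the replicate number as a block and leaving out each library. The fit was also run on simulated data, whose outcome is not reported here and is not used as support for its error rate or power. Chi-square per degree of freedom between the libraries of a group was 9.82 in shCtrl and 111 in shRPRD1B, so none was a duplicate. With groups of 2, no exact two-sided permutation p can be under 0.333.

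The members, lists and markers were chosen with earlier results of these data known. The current quasi-likelihood fit of edgeR 4 was settled on after both it and the older fit had been run, and the gene set kept in the fits without a library was settled on after values had been seen. Named genes are the members, some of which are counted in the totals but not reported here; the log2 fold change with its SE and adjusted p is given for RPRD1B, for members called or with an unadjusted p under 0.05, and for the member of each family with the highest mean CPM; related lists give at most 4 genes each by p. Fold changes printed for other members were added after values were seen.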

Additional observations from a re-analysis of the deposited data

How the results depend on the processing

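Neither direction had a receptor gene called with the other scalings, limma voom, the other count filters or either shCtrl library left out. DESeq2 called 2 receptor genes higher, and 125 genes higher and 115 lower in all, with RPRD1B at -0.68 (adjusted p = 0.0435). With limma voom the counts over all genes were 0 and 0 and the receptor median was 0.12. With no low-count filter 23 genes were higher and 17 lower; with at least 1 CPM in 2 libraries 0 and 0, and the median over the 22 receptor genes left was 0.37. The replicate numbers share only a number (correlation of deviations 0.00844); with the replicate number as a block, 2 receptor genes were higher (GABBR2, adjusted p = 0.0185, and GABRD, adjusted p = 0.0382), with 93 genes higher and 66 lower in all. The older quasi-likelihood fit of edgeR, alone and with no low-count filter, was chosen after seeing the data. Alone it called 0 receptor genes, and 4 genes higher and 3 lower in all. With no low-count filter it called 3 receptor genes higher (GABBR2, CHRNB2 and GABRD), and 334 genes higher and 308 lower in all. RPRD1B was at -0.68 in that unfiltered fit (adjusted p = 0.00161). Leaving out 1 library each, receptor genes called ranged from 0 to 7 higher and 0 to 3 lower, all genes from 14 to 3249 higher and 38 to 3345 lower, the receptor median from 0.12 to 0.23, and RPRD1B from -0.88 to -0.50. GLRB changed sign with upper-quartile factors (-0.017), and with 1 library left out it ranged from -0.12 to 0.12, GRIA4 from -0.040 to 0.49 and GRM4 from -0.66 to 0.66, the sign of each turning without shRPRD1B 1. The cause of these shifts was not tested. The sums per family kept their direction with library size alone and over compared members only, which leave both knockdown libraries in. For the NMDA, kainate, glycine and delta families the shRPRD1B libraries lay on opposite sides of the shCtrl mean. The direction of those sums therefore depended on which knockdown library was read. Most members held under 1 CPM in some library, where 2 libraries a group leave wide intervals.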
